A study of Homo sapiens with 6 samples.

Results

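The kinetochore and spindle checkpoint genes are a set of 32 genes whose products hold chromosomes to the spindle in mitosis and delay anaphase until every chromosome is attached. They were taken by symbol from a given list, as all probe sets naming 1 listed gene alone, and all 32 were measured, among 18656 genes in all. They were followed in AGS, an established human gastric adenocarcinoma line, after lipid transfection of either an anti-miR that inhibits the microRNA miR-25-3p, on 3 arrays, or a control RNA with no target, on 3 arrays. Both groups were transfected again after 24 h and harvested 48 h after the first transfection. Both groups therefore carry any effect of transfection, and untransfected cells were not analysed here. Total RNA was hybridized to an Affymetrix gene array, and values are on the log2 scale. The titles call the arrays biological replicates, but nothing says that they came from separate cultures, so p-values measure the spread between these samples, which may be technical.

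The kinetochore is a layered protein assembly built on the centromere. Nucleosomes with the histone variant CENP-A recruit an inner layer of CENP proteins, which anchors an outer layer, including the NDC80 and MIS12 complexes, that grips microtubules. An unattached kinetochore recruits checkpoint proteins of the BUB and MAD families, which restrain CDC20, the activator of the anaphase-promoting complex, and the chromosomal passenger complex with the kinase Aurora B releases faulty attachments. Transcripts of many of these genes accumulate late in the cell cycle and are widely used as signs of proliferation. In a bulk sample, fewer dividing cells and less RNA per cell cannot be told apart.

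The sequence of miR-25-3p is shown because it is what the inhibitor was made against. RefSeq (GRCh38.p14) places it at chr7:100093571-100093592 on the minus strand, and capitals mark its seed, bases 2 to 8.
miR-25-3p: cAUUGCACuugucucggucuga
Among the RefSeq mature miRNAs, 6 carry this seed. Whether the transcripts of the 32 genes hold sites for it was not tested.

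Promoter sequences are shown because cell cycle genes often carry a cell cycle homology region (TTTGAA or TTTAAA) and CCAAT boxes. Whether these motifs bear on the readings was not tested. Promoter windows from 250 bases before to 50 bases after the start were found in RefSeq for 25 of the 32 genes, 30 windows in all. Searching both strands for TTTGAA or TTTAAA and counting overlapping matches separately, 14 of the 30 windows (46.7%) held one, against 24.0% of all 35116 windows and 19.9% of the windows of genes on the array. CCAAT stood in 19 of 30 (63.3%), against 34.6% and 34.7%. Both motifs stood in 9 of 30 windows, where 9.27% of all windows and 7.82% of those on the array had both. These are matches of letters only. The 150 bases before the start (GRCh38.p14) are printed for 4 genes on both sides of the comparison, with both motifs in capitals. They are CENPA (chr2:26785906-26786055, plus strand), CENPE (chr4:103198344-103198493, minus strand), INCENP (chr11:62123861-62124010, plus strand) and SPC24 (chr19:11155783-11155932, minus strand).
CENPA: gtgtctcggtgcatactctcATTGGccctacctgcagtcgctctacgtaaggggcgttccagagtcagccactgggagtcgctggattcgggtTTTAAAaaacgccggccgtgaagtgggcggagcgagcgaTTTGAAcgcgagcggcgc
CENPE: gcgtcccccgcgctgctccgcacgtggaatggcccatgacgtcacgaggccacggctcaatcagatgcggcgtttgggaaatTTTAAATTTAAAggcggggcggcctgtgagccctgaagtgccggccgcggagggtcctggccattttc
INCENP: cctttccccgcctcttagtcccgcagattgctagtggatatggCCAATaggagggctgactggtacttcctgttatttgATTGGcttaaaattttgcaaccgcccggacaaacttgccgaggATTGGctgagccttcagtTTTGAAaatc
SPC24: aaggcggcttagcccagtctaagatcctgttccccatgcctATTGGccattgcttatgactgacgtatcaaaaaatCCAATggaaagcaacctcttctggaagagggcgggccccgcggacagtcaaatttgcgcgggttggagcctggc
CENPA and CENPE, whose differences between groups were positive, hold homology regions, and so does INCENP, with the most negative difference of the 32. SPC24, also negative, holds CCAAT boxes and no homology region in this stretch.

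The arrays read as a dividing epithelial line. The 7 measured epithelial markers, among them KRT8 and EPCAM, had control means of 8.46 to 12.03, and the 4 proliferation markers MKI67, TOP2A, PCNA and TYMS 9.03 to 10.31. Fibroblast, leukocyte and endothelial markers had control means of 2.28 to 6.39, 2.55 to 5.22 and 3.57 to 3.96. Control replicate 1 stood apart: its mean correlation with the other arrays across gene values was 0.9915, against 0.9933 to 0.9938 for the others. The main results on the 32 genes are therefore given with and without it. The number of arrays limits the precision.

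None of the 32 genes passed the threshold, an adjusted p of 0.05 in limma after Benjamini-Hochberg adjustment over all genes, in a background of 0% called higher and 0% called lower. At an unadjusted p under 0.05 in limma, 3 of the 32 genes were higher with the inhibitor, NDC80, CENPE and CENPH, where 2.95% of all genes were, and 0 were lower, where 3.16% were. The other 29 had 95% intervals of the difference that include 0. Even so, most estimates lay on one side: 25 differences were positive and 7 negative, with a median of 0.11 (inhibitor minus control, log2), against 50.5% positive and a median of 0.0021 over all genes. The 3 inhibitor arrays lay above all control arrays for 5 genes (15.6%, background 5.19%) and below them for 3 (9.38%, background 7.68%).

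Control replicate 1 read low for most of these genes. Averaged over the 32 genes, control arrays 1, 2 and 3 read 7.47, 7.63 and 7.69, and inhibitor arrays 1, 2 and 3 read 7.68, 7.66 and 7.74. The groups overlapped, since control replicate 3 read above inhibitor replicates 1 and 2. Control and inhibitor means were 7.60 ± 0.12 and 7.69 ± 0.045 (SD, n = 3 each). Control replicate 1 was the lowest of the 6 arrays for 22 of the 32 genes, against 27.0% of all genes, and inhibitor replicate 3 the highest for 16, against 19.5%. Within the controls alone, replicate 1 was below both others for 28 of the 32 genes, against 42.1% of all genes. The exceptions were CENPH, CDC20, AURKB and INCENP. Its median deviation from the mean of the other controls was -0.17 for the 32 genes and -0.023 for all genes.

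**Figure D1:**
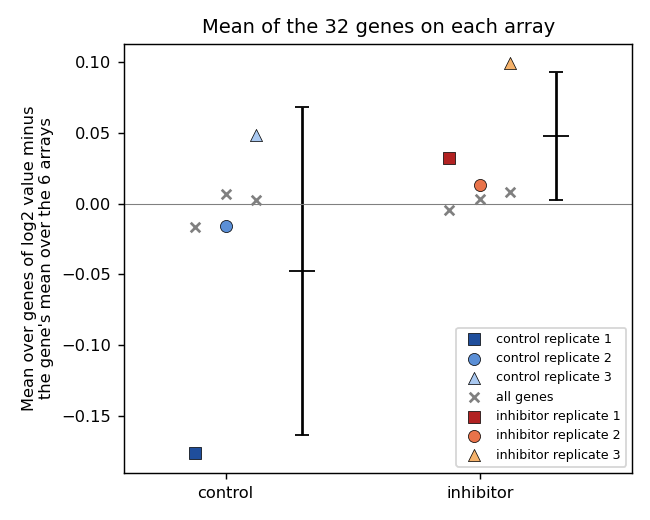
Mean over the 32 genes of the log2 value minus each gene's own mean over the 6 arrays, 1 symbol per array; black marks show the group mean and SD (n = 3) and grey crosses the same quantity over all genes. Control replicate 1 lies at -0.18, and the other 5 arrays lie between -0.016 and 0.099.

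Without control replicate 1, 20 of the 32 differences were positive and the median was 0.033, against 47.5% positive and a median of -0.0090 over all genes. The difference moved downward for 30 of the 32 genes, the exceptions being CDC20 and INCENP. At an unadjusted p under 0.05 in limma 0 of the 32 genes were higher, where 3.34% of all genes were. This fall was not particular to that array. In either direction, 0 passed without control replicate 2 and 0 without inhibitor replicate 3, beside 945 and 988 of all 18656 genes. Without inhibitor replicates 1 and 2 it was 1 and 4, beside 958 and 856. Without control replicate 3 it was 5, beside 1271. With control replicate 1 left out, the inhibitor arrays lay above control replicates 2 and 3 for 5 genes (15.6%, background 10.1%) and below them for 4 (12.5%, background 14.7%). With all arrays, 4 of 4 proliferation markers had positive differences, against 50.5% of all genes, and none passed the threshold in limma. Their median was 0.099, beside 0.11 for the 32 genes. So short a list says little. The 4 leukocyte markers, dim in this line, were also 4 of 4 positive, with a median of 0.27. Positive differences numbered 0 of 4 for endothelial, 3 of 5 for fibroblast and 3 of 7 for epithelial markers. PCNA, the replication clamp, read 8.80, 9.18 and 9.11 in the controls and 9.20, 9.28 and 9.10 with the inhibitor, a difference of 0.17 (SE 0.12). TOP2A, a topoisomerase of dividing cells, read 9.89, 9.94 and 10.06 against 10.12, 10.07 and 10.13, a difference of 0.14 (SE 0.088). In both genes control replicate 1 was the lowest array. MKI67, which encodes the marker Ki-67, read 10.19, 10.12 and 10.28 against 10.33, 10.18 and 10.25, a difference of 0.058 (SE 0.091). TYMS, which makes thymidylate for replication, read 10.33, 10.34 and 10.25 against 10.35, 10.35 and 10.33, a difference of 0.036 (SE 0.082). For these 2 control replicate 1 was not the lowest control. The part of proliferation in the differences and in the low reading of that array was not tested.

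**Figure D2:**
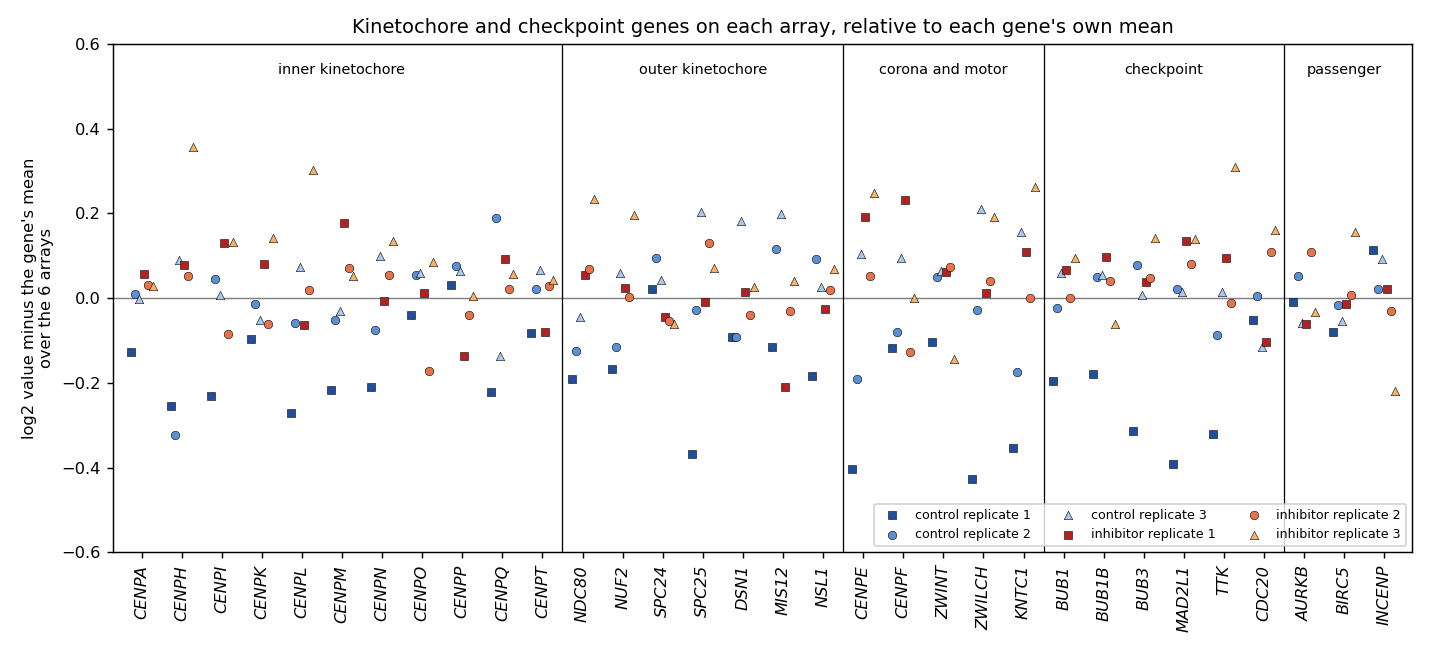
Log2 value of each of the 32 genes on each of the 6 arrays minus that gene's mean over the arrays, by role; blue symbols are control and red to orange symbols inhibitor arrays. The dark blue squares of control replicate 1 are the lowest symbol for 22 genes, and the light orange triangles of inhibitor replicate 3 the highest for 16.

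The inner kinetochore, 11 genes that bind centromeric chromatin, had 8 positive differences and a median of 0.11, or 0.036 without control replicate 1. CENPH, a subunit of the constitutive centromere network, read 5.51, 5.44 and 5.85 in the controls and 5.84, 5.82 and 6.12 with the inhibitor. Control replicate 3 overlapped the inhibitor arrays. The difference was 0.32 (SE 0.14, adjusted p = 0.79 in limma) and 0.28 without control replicate 1. Of its 9 probe sets, 7 had a positive and 1 a negative difference. With the median of the probe sets taken on each array before comparing groups, the difference was 0.17. The brightest probe set gave 0.11. CENPM, another subunit of that network, read 5.84, 6.01 and 6.03 in the controls and 6.24, 6.13 and 6.11 with the inhibitor. Its groups did not overlap, and the difference was 0.20 (SE 0.093), or 0.14 without control replicate 1 and 0.037 in its brightest probe set. CENPA, the histone variant itself, read 8.22, 8.35 and 8.34 against 8.40, 8.38 and 8.37. These groups too were separate, but by less than the distance between control replicate 1 and the other controls, and the difference of 0.080 (SE 0.086) went to 0.036 without it and was -0.070 in the brightest probe set.

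CENPP, a subunit of the same network, was among the genes on the other side. It read 6.17, 6.22 and 6.20 in the controls and 6.003, 6.10 and 6.14 with the inhibitor. The difference was -0.11 (SE 0.085), with 8 of 11 probe sets negative. Its groups did not overlap, with or without control replicate 1, but its brightest probe set gave 0.40. CENPO and CENPT had -0.049 (SE 0.098) and -0.0046 (SE 0.089). The remaining inner genes CENPI, CENPK, CENPL, CENPN and CENPQ had differences between 0.11 and 0.17, or 0.031 to 0.087 without control replicate 1, and their groups overlapped.

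In the outer kinetochore, 5 of 7 genes had positive differences, with a median of 0.042. Without control replicate 1 the median was -0.039 and 2 of 7 were positive, NDC80 and NUF2. NDC80, which binds the microtubule directly, read 7.93, 7.998 and 8.08 in the controls and 8.18, 8.19 and 8.36 with the inhibitor. Every inhibitor array was above every control array. The difference was 0.24 (SE 0.093, adjusted p = 0.79 in limma), and 0.20 without control replicate 1, with 15 of 17 probe sets positive, but the brightest probe set gave 0.050. NUF2, the partner of NDC80 in the microtubule-binding end of the complex, had 0.15 (SE 0.10), or 0.10 without that array. Its brightest probe set gave 0.15. The other pair of the complex, SPC24 and SPC25, which joins it to the inner layer, went apart from each other in sign. SPC24 read 7.84, 7.91 and 7.86 in the controls and 7.77, 7.76 and 7.75 with the inhibitor, so the groups were separate, with a difference of -0.11 (SE 0.081). SPC25 had 0.13 (SE 0.14), which turned to -0.023 without control replicate 1.

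The MIS12 complex links the outer layer to the centromere, and 3 of its genes belong to the set, MIS12, DSN1 and NSL1. With all arrays these had 1 negative and 2 positive differences, the latter near 0. Without control replicate 1, 3 of 3 were negative. PMF1, a gene of this complex outside the set, had 0.091 (SE 0.090), or 0.0575 without control replicate 1. MIS12 read 6.35, 6.58 and 6.66 in the controls and 6.25, 6.43 and 6.50 with the inhibitor. Its groups overlapped only through control replicate 1, without which the difference went from -0.13 (SE 0.11) to -0.22 (SE 0.11), although its brightest probe set gave 0.19. Without inhibitor replicate 1 it was -0.062 and without control replicate 3 -0.067. The partners DSN1 and NSL1 had 0.0013 (SE 0.10) and 0.042 (SE 0.10), both negative without that array, at -0.045 and -0.039.

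The 5 genes of the corona, the outermost layer, and its motor had a median difference of 0.16, or 0.028 without control replicate 1. CENPE, a kinesin that carries chromosomes to the spindle equator, read 7.86, 8.08 and 8.37 in the controls and 8.46, 8.32 and 8.51 with the inhibitor. Control replicate 3 lay above inhibitor replicate 2, and the controls spanned 0.51, more than the difference of 0.33 (SE 0.13, adjusted p = 0.79 in limma). Without control replicate 1 it was 0.21, and the brightest probe set gave 0.063. KNTC1 and ZWILCH, which form the RZZ complex with ZW10 and recruit checkpoint proteins, had 0.25 (SE 0.14) and 0.16 (SE 0.15), and 0.13 and -0.010 without that array. ZWINT, which tethers this complex, and the large coiled-coil protein CENPF had -0.0062 (SE 0.10) and 0.069 (SE 0.12).

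All 6 checkpoint genes of the set had positive differences, against 50.5% of all genes, with a median of 0.13. Without control replicate 1 the median was 0.069 with 5 of 6 positive, against 47.5% of all genes. Checkpoint genes outside the set went both ways. MAD1L1, MAD2L1BP and TRIP13 had -0.024 (SE 0.090), -0.12 (SE 0.10) and -0.066 (SE 0.093). SPDL1, ZW10 and KNL1 had 0.17 (SE 0.11), 0.067 (SE 0.11) and 0.16 (SE 0.12). TTK, the kinase that starts checkpoint signalling, read 7.95, 8.19 and 8.29 in the controls and 8.37, 8.27 and 8.59 with the inhibitor, with a difference of 0.26 (SE 0.12), or 0.17 without control replicate 1 and 0.12 in its brightest probe set. Only inhibitor replicate 2 overlapped the controls. MAD2L1, which encodes the CDC20 inhibitor MAD2, read 7.99, 8.40 and 8.39 against 8.51, 8.46 and 8.52. The groups were separate, and control replicate 1 was far below all other arrays, so that the difference of 0.24 (SE 0.12) became 0.10 without it. BUB3 and BUB1, which bind each other at the kinetochore, had 0.15 (SE 0.12) and 0.11 (SE 0.097), or 0.033 and 0.036 without that array. The checkpoint kinase-like protein BUB1B had 0.050 (SE 0.10), which turned to -0.027. CDC20 had 0.11 (SE 0.10), also without control replicate 1, but 0.19 without inhibitor replicate 1, 0.056 without inhibitor replicate 3 and -0.19 in its brightest probe set.

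The passenger complex was split. INCENP, its scaffold, read 8.37, 8.28 and 8.35 in the controls and 8.27, 8.22 and 8.04 with the inhibitor, with a difference of -0.15 (SE 0.096) and 16 of 21 probe sets negative. Its groups did not overlap, and the difference was -0.13 without control replicate 1, but -0.081 without inhibitor replicate 3, the lowest array. The brightest probe set of INCENP gave -0.33. BIRC5, which encodes the complex member survivin, read 6.39, 6.448 and 6.41 against 6.452, 6.47 and 6.62. The groups were separate by that small margin, with a difference of 0.10 (SE 0.089), or 0.085 without control replicate 1. It was 0.047 without inhibitor replicate 3, the highest array, and 0.018 without the dimmest 30% of probe sets. AURKB, the kinase of the complex, had 0.010 (SE 0.090).

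**Figure D3:**
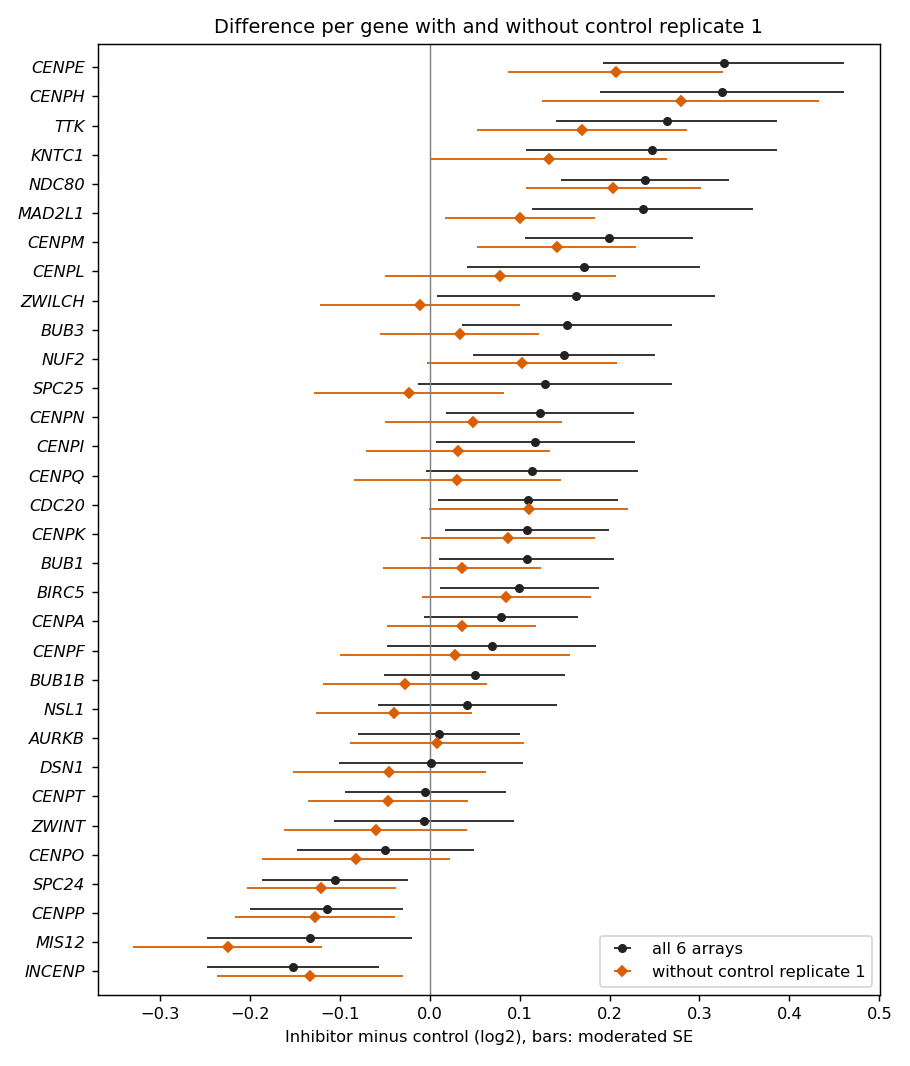
Inhibitor minus control difference (log2) of each of the 32 genes with its moderated SE, from all 6 arrays (black circles) and without control replicate 1 (orange diamonds), ordered by the former. Circles run from -0.15 for INCENP to 0.33 for CENPE, and the diamond lies left of the circle for 30 genes.

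The differences were small against the spread of the controls. For 25 of the 32 genes the difference between groups was smaller than the range of the 3 control arrays, as it was for 84.3% of all genes, and the median control range was 0.24 for the set and 0.25 for all genes. Leaving out each array in turn, 18 genes kept a positive and 4 a negative difference throughout. The 4 were CENPP, SPC24, MIS12 and INCENP.

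Single probe sets, exon-sized pieces of a gene each read by few probes, were also set out by brightness, their mean log2 value over the 6 arrays. Brightness depends on probe sequence as well as on RNA, so it ranks no gene against another. The 32 genes had 525 probe sets, 6 to 64 per gene, which share their gene's RNA and are not replicates. None was called in limma, in a background of 0% of 224320 probe sets. Differences were positive for 364 (69.3%), against 49.7% of all probe sets. All inhibitor arrays lay above all controls for 84 (16.0%, background 5.89%) and below them for 27 (5.14%, background 6.32%). KNTC1 and CENPE, with 64 and 50 probe sets, weigh most in these shares and in the classes below. They had 51 and 45 positive probe sets, and 13 and 11 with all inhibitor arrays above all controls.

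Split into 3 equal classes of 175 probe sets, the difference was largest in the dim class, below 7.12, where the median was 0.23. The middle class had 0.12 and the bright class, above 8.81, 0.093. The shares of positive differences were alike, at 66.9%, 70.3% and 70.9%, against 50.4%, 47.6% and 49.9% for all probe sets between the same brightness limits. The spread of differences shrank with brightness, with an SD over probe sets of 0.48, 0.32 and 0.20. Without control replicate 1 the medians were 0.11, 0.077 and 0.042. Control replicate 1 lay below the mean of the other controls by a median difference of -0.26 in the dim, -0.13 in the middle and -0.090 in the bright class, against -0.010, -0.040 and -0.040 for all probe sets. The low reading of that array in these genes was thus present at every brightness.

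**Figure D4:**
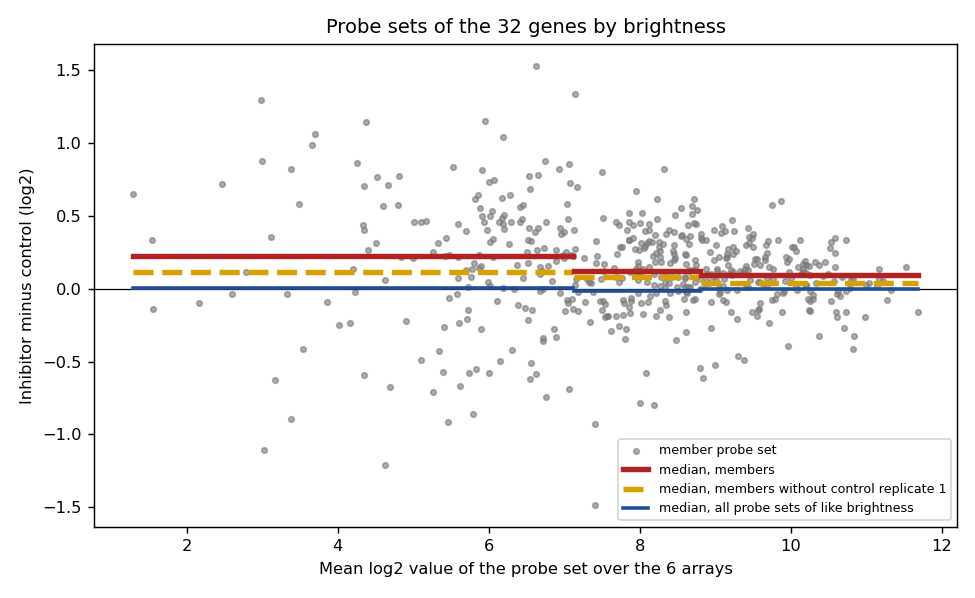
Inhibitor minus control difference (log2) of the 525 probe sets of the 32 genes against their mean log2 value over the 6 arrays, with medians in 3 brightness classes for these probe sets (red), for the same without control replicate 1 (dashed yellow) and for all probe sets between the same limits (blue). The red line steps from 0.23 through 0.12 to 0.093, and the blue line stays between -0.013 and 0.0067.

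The same held inside genes. When the probe sets of each gene were split evenly by brightness, the dimmer ones had the larger mean difference in 24 of the 32 genes, with medians over genes of 0.15 for dimmer and 0.062 for brighter probe sets. Among the 13814 genes with 6 or more probe sets the dimmer ones were larger in 51.5%. Without control replicate 1 it was 20 of 32, with medians of 0.11 and -0.028. Among the 13814 genes it was then 46.5%, with medians of -0.026 and -0.012. Taking the single brightest probe set per gene, 22 of the 32 differences were positive, with a median of 0.065. KNTC1 had 0.37 in dimmer and 0.12 in brighter probe sets, MAD2L1 0.37 and 0.11, and CDC20 0.28 and -0.047. The single brightest probe set of KNTC1 nevertheless gave 0.35, above its gene value of 0.25. CENPO went the other way, with -0.32 and 0.22.

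Other kinetochore, cohesion and anaphase genes, 45 measured of 49 listed, leaned less. Their median was 0.052 with 29 positive and 16 negative differences, and -0.012 with 21 positive without control replicate 1. None passed the threshold in limma. At an unadjusted p under 0.05 in limma 3 were higher and 1 lower, where 2.95% and 3.16% of all genes were. Groups were separate upward for 6 genes (13.3%, background 5.19%) and downward for 2 (4.44%, background 7.68%). The 3 at that p were ANAPC7 and ANAPC1, subunits of the anaphase-promoting complex, at 0.25 (SE 0.090) and 0.24 (SE 0.096), and OIP5, which helps to load CENP-A, at 0.25 (SE 0.093). Without control replicate 1 these were 0.19, 0.17 and 0.22, and in the brightest probe set 0.057, 0.027 and 0.077. Downward was FZR1, the activator that takes over from CDC20 at the end of mitosis, at -0.22 (SE 0.095), or -0.15 without that array. The brightest probe set of FZR1 gave -0.40, but the median of its probe sets -0.020. FZR1 was followed by the securin gene PTTG1 at -0.28 (SE 0.14). Next was MIS18A, a CENP-A loading factor, at -0.17 (SE 0.10), although 7 of its 9 probe sets were positive. Copies nearly the same as PTTG1 and ANAPC1 exist at other loci, which makes these readings uncertain.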

How the data were processed

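The deposited table gives log2 values of 257430 probe sets on 6 arrays; per the submitters' processing notes, the authors used RMA with Affymetrix Expression Console and with Transcriptome Analysis Console, versions and settings being not given in the sources used here. RMA brings arrays to nearly 1 distribution, which hides a change common to most genes. Probe sets with 1 gene symbol in the platform annotation (224320) were averaged per gene and array, giving 18656 genes with no filter on dim genes. Symbols of other genes were updated through RefSeq where unambiguous. Groups were compared over all genes with limma 3.58.1 (R 4.3.3), by lmFit and eBayes and with no block for replicate number, and the same fit ran on probe sets; it was tested on simulated data. Array values were given in full for genes whose groups did not overlap, for the smallest p in each role and for the 4 most negative genes. Probe sets naming several genes were left out. The members, lists and motifs were chosen with earlier results of these data known. Alternatives covered the block, single arrays, normalization, dim genes, probe set combination, variance and array weights.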

Additional observations from a re-analysis of the deposited data

How the results depend on the processing

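Limma called 0 genes under every setting run, with 1 exception: without control replicate 3 it called RGPD4, not among the 32, so leaving out arrays gave 0 to 1 calls. Genes at an unadjusted p under 0.05 numbered 1141 of 18656, with 814 to 1688 over the settings. The 814 were among only 9328 genes, those left without the dimmest 50%. With all 18656 genes the lowest count was 856, without inhibitor replicate 2. The median difference of the 32 genes was 0.033 to 0.13 leaving out arrays, lowest without control replicate 1, and 0.065 to 0.11 otherwise. Between 20 and 26 differences were positive. The replicate block gave a median of 0.11, 25 positive differences, 4 in place of 3 genes at an unadjusted p under 0.05, and changed no call. Same-numbered arrays deviated together weakly, with correlations across genes of -0.032, -0.040 and 0.17, so the numbers were not taken as pairs. The dim minus bright class difference was 0.070 to 0.23 leaving out arrays and 0.060 with a median split. The sign of 14 genes turned under no setting. With the brightest probe set it turned for CENPA (-0.070), CENPO (0.17), CENPP (0.40), DSN1 (-0.15), MIS12 (0.19), ZWINT (0.090), BUB1 (-0.077), BUB3 (-0.0067), CDC20 (-0.19), AURKB (-0.16) and BIRC5 (-0.013). Another setting took the median of a gene's probe sets on each array before comparing groups, which is not the median of the probe set differences. With it the sign turned for CENPL (-0.023, with 7 of 8 probe sets positive), CENPO (0.040), CENPT (0.077), DSN1 (-0.20), MIS12 (0.043), ZWINT (0.077) and AURKB (-0.080). Without the dimmest 30% of probe sets it turned for DSN1 (-0.022) and AURKB (-0.061), and with array weights for NSL1 (-0.022) and AURKB (-0.0076). Leaving out arrays gave -0.10 to 0.025 for CENPO, -0.046 to 0.034 for CENPT, -0.023 to 0.26 for SPC25, -0.045 to 0.093 for DSN1, -0.039 to 0.099 for NSL1, -0.029 to 0.15 for CENPF, -0.060 to 0.064 for ZWINT, -0.010 to 0.31 for ZWILCH, -0.027 to 0.094 for BUB1B and -0.042 to 0.043 for AURKB. The cause was not tested. Of the 32 genes, 3 were among the dimmest 50% of genes.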

Other observations

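Another 11 probe sets name CENPA, CENPN, CENPO or CENPP together with a neighbouring gene and were not used above. Of these, 8 had a negative and 3 a positive difference, from -0.91 to 0.15. The value of -0.91 was on a probe set shared by CENPO and ADCY3, which read 6.78, 7.15 and 5.96 in the controls and 5.26, 5.63 and 6.27 with the inhibitor, so the groups overlapped. Of 4 probe sets shared by CENPP and IPPK, all were negative, the largest being -0.62 at a dim level of 3.41 in controls and 2.79 with the inhibitor.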
